A study of Mus musculus with 8 samples.

Results

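The response of acetylated chromatin to epidermal growth factor (EGF) was examined in 266-6 cells, a mouse pancreatic acinar line, after siRNA against Arid1a. Acetylation of histone H3 at lysine 27 (H3K27ac) was mapped with ChIP-seq (immunoprecipitation of chromatin, then sequencing) in 2 libraries with EGF and 2 with vehicle, which are 4 of the 8 libraries of the series. All 4 received ARID1A siRNA at 25 nM for 48 h and serum-free medium overnight. EGF was then given at 40 ng/ml, or 0.1% BSA as vehicle, for 8 h. The other 4 libraries had a non-targeting siRNA with the same EGF or vehicle, 2 each, and are called intact here. The knockdown was transient, and how much ARID1A remained is not analysed here, so "knockdown" names the siRNA given. Acinar marker genes were not analysed here, because the gene table at hand is of another genome build than the peaks.

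EGF binds the EGF receptor and acts through the RAS-ERK kinase cascade on transcription factors of the ETS and AP-1 families. H3K27ac is laid down by the acetyltransferases p300 and CBP at active promoters and enhancers. ARID1A belongs to BAF, the mammalian SWI/SNF complex, which moves nucleosomes and keeps many enhancers accessible. In acinar cells, EGF receptor signalling is known for its part in the change from acinar to duct-like cells.

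Each library was available as its own list of peaks on mouse build mm9. The vehicle libraries held 26844 and 27558 peaks over 46.3 and 48.7 Mb, and the EGF libraries 22030 and 23256 peaks over 34.2 and 36.8 Mb. Mean covered length was thus 35.5 ± 1.81 Mb with EGF and 47.5 ± 1.66 Mb with vehicle (SD over 2 libraries a group; exact permutation test, two-sided, p = 0.333, the smallest that 2 against 2 allow). Peaks of 10000 bp or more numbered 90 and 94 with EGF against 161 and 208 with vehicle. The median −log10 q of a list was 4.44 and 4.09 with EGF and 4.28 and 4.25 with vehicle, so peak confidence overlapped between the groups while list length did not. Read depth is unknown, and fewer or narrower peaks through lower depth and through less acetylation cannot be told apart. Nothing in the labels places the duplicates in separate cultures, so each p-value measures only the spread between these libraries, which may be technical.

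The first question was which stretches of chromatin carried a peak in only 1 treatment. Peaks of the 4 knockdown lists that shared at least 1 bp were merged to 31053 regions. Of these, 18868 (60.8%) were held by all 4 libraries, and they made up 83.0% of the merged length. EGF went with 2859 regions lost, with a peak in both vehicle libraries and neither EGF library, and with 346 gained in the reverse sense. Lost regions were 9.21% of all merged regions and gained regions 1.11%. With each list reduced to its 22030 peaks of highest −log10 q, 848 regions were gained and 1053 lost. Replicates of a group differed in 8980 regions, among them 4698 held by a single vehicle library and 1029 by a single EGF library. Where 3 libraries held a region, the missing one was an EGF library in 1951 cases and a vehicle library in 545.

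**Figure D1:**
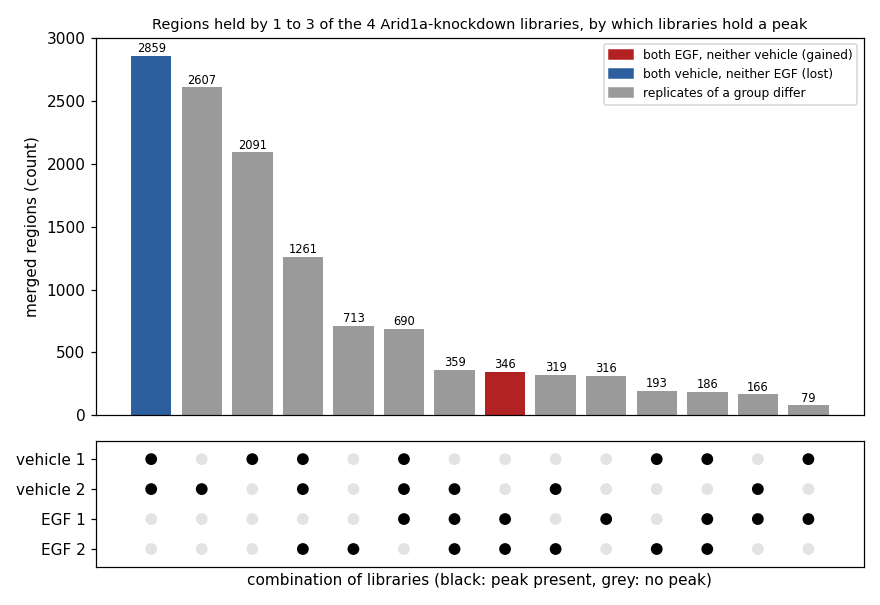
Number of merged regions held by 1 to 3 knockdown libraries (vertical axis, count) for each combination of knockdown libraries that hold a peak, with the combination shown by black dots below each bar. The 2859 regions lost with EGF form the tallest bar, and the 346 gained regions are fewer than those held by the second EGF library alone (713).

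Gained and lost regions were compact and low in their lists. The median width was 802.5 bp for gained, 942 bp for lost and 1953 bp for regions held by all 4 libraries. Ranked by the authors' fold enrichment within its own list (percentile 0 for the weakest peak, 100 for the strongest), the median peak stood at percentile 17.8 for gained and 21.2 for lost regions, against 61.0 for regions held by all 4.

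A few gained regions stood high in both EGF lists. The one whose weaker peak ranked highest, chr10:79951426-79953448, was covered over 1534 and 2023 bp in the EGF libraries and over 0 bp in both vehicle libraries. Its peaks stood at percentiles 72.6 and 72.2 of their lists. In intact cells it was covered over 1820 and 1845 bp with EGF, and over 0 and 611 bp with vehicle. The next, chr11:101645191-101646581, had 1391 and 1352 bp with EGF, and 0 bp in all 4 vehicle libraries of both siRNAs, at percentiles 71.7 and 77.6. Then came chr18:38760365-38761886 with 1241 and 1522 bp and the short region chr6:125376594-125376895 with 232 and 302 bp. The widest of the 10 leading gained regions, chr13:58043403-58047412, was covered over 3967 bp in both EGF libraries. All 10 were held by both EGF libraries of intact cells as well, and 6 had no peak in either intact vehicle library.

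The 10 leading gained regions were 302 to 4010 bp wide, and the 10 leading lost regions 333 to 1533 bp. The first lost region, chr19:46764171-46764899, was covered over 392 and 729 bp with vehicle and 0 bp in both EGF libraries. Its peaks stood at percentiles 72.7 and 81.5 of the vehicle lists. In chr2:24909615-24911147 vehicle libraries had 1520 and 1223 bp, and EGF libraries none. Intact cells covered that region over 909 and 1083 bp with vehicle and 400 and 0 bp with EGF. A different pattern was seen at chr14:47441510-47441842, with 286 and 333 bp in the knockdown vehicle libraries and no peak in any of the 4 intact libraries. Its log2 difference of length, -1.35 in the length test described later, was 0.0873 after quantile normalization. At chr8:8488504-8489489 vehicle libraries had 681 and 986 bp and EGF libraries none, while intact EGF libraries retained 380 and 429 bp. Of the 10 leading lost regions, 8 had a peak in both intact vehicle libraries and 6 had none in either intact EGF library.

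Intact libraries, which took no part in choosing these regions, held gained and lost regions unequally. Of the 346 gained regions, 225 (65.0%) had a peak in both intact EGF libraries, close to the 63.2% of all merged regions, and 229 (66.2%) had none in either intact vehicle library, against 17.3% of all. Both held for 139 (40.2%), against 1.77% of all merged regions. Among regions held by a single EGF library, 21.8% had a peak in both intact EGF libraries and 74.8% none in either intact vehicle library. Both held for 13.1% of those. Of the 2859 lost regions, 2039 (71.3%) had no peak in either intact EGF library, against 27.7% of all. A peak in both intact vehicle libraries was seen in 1060 lost regions (37.1%), below the 65.4% of all. Both held for 548 (19.2%), against 4.33% of all merged regions. Among regions held by a single vehicle library, 88.2% had no peak in either intact EGF library, a larger share than of lost regions. A peak in both intact vehicle libraries was seen in 8.66% of those, and both held for 5.09%. The intact vehicle libraries differed here: the first held 1127 of the lost regions and the second 2215. No intact library held 537 of the lost regions (18.8%) and 46 of the gained ones (13.3%), and the share over all merged regions was 13.7%.

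Some changed regions lay in runs. With neighbours up to 50 kb apart joined, 34 gained regions (9.83%) fell into 15 stretches of more than 1, and 839 lost regions (29.3%) into 381. Since lost regions are 8.26 times as many, these shares cannot be set against each other. The stretch with the most gained regions, chr6:142473694-142516950, held 4 gained regions of 324 to 2971 bp in the EGF libraries, and none of them had a peak in any vehicle library, intact cells included. The only region held by all 4 libraries within it rose by 25.3 percentile points in rank of fold (the test is given with the ranks). In chr3:54869557-54893246 all 3 merged regions were gained, with 238 to 1102 bp, and all 3 were present in both intact EGF libraries. On chr19:53478470-53522572, 3 gained regions stood beside 2 held by all 4 libraries, of which 1 rose in rank, by 39.9 points, and the other did not pass. The stretches with the most lost regions had 6 each, on chr7:106536921-106659394 and chr9:66407605-66495774. No region held by all 4 libraries inside these fell in rank past the threshold. Changes of rank ran from -0.88 to 11.6 points in the first stretch. They started at -7.02 in the second, where 1 of 5 passed upward and 0 downward. In chr14:22966544-23033227, with 5 lost regions, the only region held by all 4 changed by -11.2 points and did not pass. A rank is relative to other regions and cannot show whether these regions lost signal too.

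No chromosome carried the losses alone. Among numbered chromosomes and X, lost regions made up between 7.27% (X) and 11.5% (chromosome 13) of merged regions. Gained regions ranged from 0.158% on X, a single region of 633, to 1.91% on chromosome 6.

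The second question was how far the width of peaks changed. Limma was run on log2(covered bp + 200) for the 25326 regions that at least 2 knockdown libraries held, and all 8 libraries shared the estimate of spread. At an adjusted p (Benjamini-Hochberg over these regions) under 0.05, 297 regions were longer and 2610 shorter with EGF, which is 1.17% and 10.3% of regions tested. The median difference was -0.30. Calls together made up 11.5% of regions tested. Of the longer regions 216 were gained regions, and of the shorter ones 1448 were lost regions. These entered the test only through the group that held them, so their calls restate presence. Their split depended on scaling: quantile normalization moved the median to 0.08 and gave 689 longer and 829 shorter, and lists of equal length gave 592 and 1610. Leaving out 1 knockdown library changed the regions tested, since 2 of the remaining lists still had to hold a peak. Without the first or second vehicle library, regions held by vehicle libraries alone could not enter. The median difference was then -0.27 and -0.23 over 22306 and 22165 regions. Without the first or second EGF library, regions held by EGF libraries alone could not enter. The median was then -0.25 and -0.33 over 24752 and 24479 regions. Leaving out an intact vehicle library could not change the median of -0.30, since intact libraries enter only the estimate of spread. The number of calls varied widely between these fits, with ranges given in the last section. On this scale the leading gained regions on chromosomes 10, 11, 18 and 6 differed by 3.30 ± 0.63 (SE, limma adjusted p = 0.0281), 2.97 ± 0.24 (adjusted p = 0.00636), 2.98 ± 0.25 (adjusted p = 0.00636) and 1.22 ± 0.23 (adjusted p = 0.0257). Of the 10 leading regions 8 gained and 7 lost passed, but they were chosen on presence in the same libraries, so this is a description.

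Regions that no library lacked were mostly narrower with EGF at their deposited lengths. Over the 18868 regions held by all 4 libraries, median covered length was 1363 bp with EGF and 1682 bp with vehicle. The median log2 ratio was -0.26 (quartiles -0.54 and -0.06), so that the median region retained 83.7% of its vehicle length. In 10470 regions (55.5%) both EGF libraries were shorter than both vehicle libraries, and in 1246 (6.6%) both were longer. The typical difference between replicates of a group was 0.19 on the log2 scale for either treatment (median of absolute values), against 0.30 between treatments. By limma 1059 of these regions were shorter and 64 longer (5.61% and 0.339%). With lists of equal length the median ratio was -0.25, and without single libraries it lay between -0.30 and -0.23. The number of limma calls among these regions was not stable in the same way. It varied widely without single libraries, with ranges given in the last section. Quantile normalization reversed the median limma difference of these regions, from -0.22 to 0.12, and changed the split of calls to 335 longer and 313 shorter.

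Peaks drew in from both sides by like amounts. In the 17358 regions with exactly 1 peak in each library, the lower edge lay 107.5 bp further in with EGF and the upper edge 109.5 bp (medians). Both edges moved inward in 10237 regions (59.0%), both outward in 1497 (8.62%), and in opposite senses in 5587 (32.2%). Peaks also broke up: 249 regions had 1 peak in each vehicle library and 2 or more in each EGF library, while 24 showed the reverse. By mean covered length over the 4 libraries, the median log2 ratio was -0.35 in the narrowest 4717 regions and -0.22 in the widest 4717, while the median loss was 172 and 563 bp. Limma called 100 and 489 shorter in these sets.

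The largest losses of length, counted in bp, were in very broad domains, which this way of choosing favours. In chr11:74259233-74322296, a domain of 63064 bp, vehicle libraries covered 61346 and 62169 bp in 2 peaks each, and EGF libraries 49659 and 55165 bp in 7 and 6 peaks. The groups did not overlap, but the log2 difference of -0.24 ± 0.28 (SE) missed the threshold (limma adjusted p = 0.614). In chr15:88684580-88700184, 13755 and 14220 bp with vehicle stood against 6784 and 4903 bp with EGF, a difference of -1.25 ± 0.16 (SE, limma adjusted p = 0.00998). In chr5:37281135-37296617 the lengths were 13244 and 15483 bp against 7339 and 7414 bp, a difference of -0.94 ± 0.09 (SE, limma adjusted p = 0.0065). The rank of fold in these last 2 domains differed by -4.66 and -9.55 points and did not pass (limma adjusted p = 0.613 and 0.289). In the other 3 of the 5 largest losses the mean rank was higher with EGF. Domain chr7:105287459-105314705 went from 26735 and 27247 bp to 21864 and 17830 bp while its rank rose by 25.95 ± 5.79 points (SE, limma adjusted p = 0.0190). Its loss of length missed the threshold (limma adjusted p = 0.129). The chromosome 11 domain and chr5:30889093-30923024 differed in rank by 4.48 and 0.34 points and did not pass (limma adjusted p = 0.439 and 0.923). Intact cells gave 10709 and 12671 bp with vehicle and 5640 and 5180 bp with EGF in the domain on chromosome 15.

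Against the general narrowing, some domains widened. In chr6:5058918-5065246 vehicle libraries covered 1791 and 1912 bp in 2 peaks each, and EGF libraries 6329 and 5677 bp in a single peak. This was a rise of 1.59 ± 0.34 (SE, limma adjusted p = 0.0359). In chr14:26670084-26677609 lengths were 4408 and 5064 bp with vehicle and 7401 and 7526 bp with EGF, with 3 and 2 peaks joined into 1 (0.64 ± 0.10 SE, limma adjusted p = 0.0154). In chr11:76227647-76234015, 2661 and 3267 bp became 4823 and 6369 bp (0.87 ± 0.20 SE, limma adjusted p = 0.0472). Regions chr2:156503677-156509747 and chr11:42996232-43001532 reached 4984.5 ± 61.5 and 4861.5 ± 549 bp with EGF (SD, n = 2), from 2186.5 ± 317 and 2192.5 ± 578 bp, and missed the threshold (limma adjusted p = 0.0925 and 0.0557). All 5 of these widest gains rose in rank of fold too, by 26.6 to 35.9 points.

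The third question was whether the order of regions by enrichment changed, compared within a fixed set of regions. Within each library the 18868 regions held by all 4 were ranked by their highest fold enrichment and given a percentile from 0 to 100. The fold enrichments are the authors' own and were used for ranking within a list alone. Libraries of the same treatment were more alike than those of different treatment, with a Spearman rho over regions of 0.947 between vehicle libraries and 0.936 between EGF libraries, against 0.813 to 0.820 between treatments (a description, since regions are not independent). The median shift of a region was 5.23 points between vehicle replicates, 5.56 between EGF replicates and 10.7 between libraries of different treatment.

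Limma on the ranks of the 4 knockdown libraries called 2182 regions higher and 2242 lower with EGF at an adjusted p under 0.05, or 11.6% and 11.9% of regions tested (23.4% together). Called regions moved by a median of 24.3 points. Both EGF libraries ranked above both vehicle libraries in 6115 regions (32.4%) and below them in 6140 (32.5%). Ranks over a fixed set sum to the same total, so rises and falls balance in points, though not by rule in number. The ranks thus cannot show a general gain or loss. Placed among all peaks of its list, where EGF lists are shorter, 1316 regions were higher and 4138 lower. Ranked by −log10 q in place of fold, 779 were higher and 733 lower. Of the 4424 calls by fold, 4419 kept their direction under that measure, and 1482 passed there too. Calls fell when libraries were left out, to 1070 higher and 681 lower without the first vehicle library and 1101 and 726 without the second. They numbered 860 and 1146 without the first EGF library, and 865 and 1176 without the second.

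**Figure D2:**
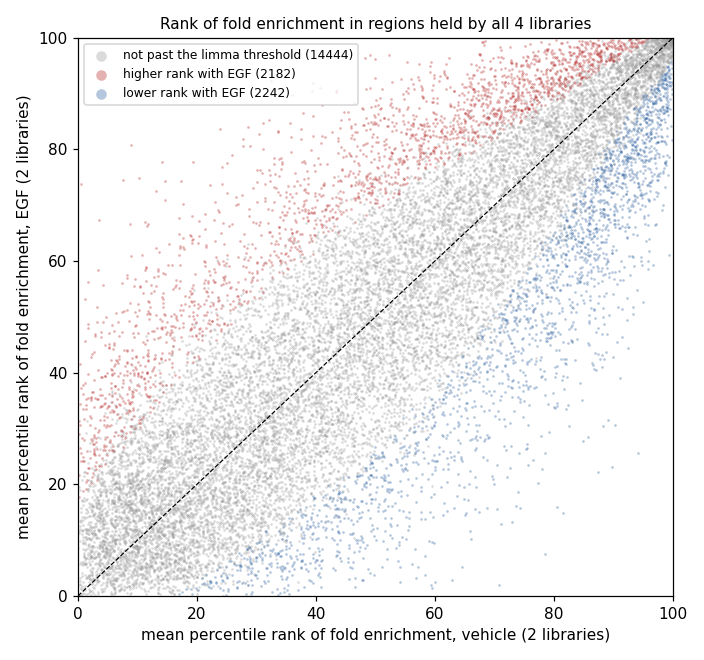
Mean percentile rank of fold enrichment with vehicle (horizontal axis) and with EGF (vertical axis) for the 18868 regions held by all 4 knockdown libraries, each mean over 2 libraries. The 2182 regions called higher lie above the dashed line of equal rank, the 2242 called lower lie below it, and the 14444 others lie around it.

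Rises carried some regions from the bottom of the order into its upper part. The largest was in chr4:111335202-111337384, at ranks 0.490 and 0.363 with vehicle and 69.8 and 77.9 with EGF, a rise of 73.4 ± 7.09 points (SE, limma adjusted p = 0.00408). Its peaks widened from 1263 and 1207 bp to 1979 and 2170 bp. In chr8:114515674-114516404 ranks of 15.1 and 2.65 became 85.8 and 75.8 (71.9 ± 7.92 SE, limma adjusted p = 0.00408). The next, chr5:124422363-124428645, rose from 27.1 and 24.0 to 91.0 and 96.8 while its length shrank from 4717 and 6186 bp to 1381 and 2764 bp. Its log2 difference of length was -1.37 ± 0.30 (SE, limma adjusted p = 0.0392), so rank and width moved in opposite senses. In chr17:23876575-23877915 ranks were 4.56 and 10.5 with vehicle and 77.2 and 72.0 with EGF. In chr15:32045537-32048150 they were 14.5 and 6.10, and 70.7 and 79.1. Among the 10 largest rises the groups stood apart by 59.7 to 73.4 points on average, and 6 regions widened while 4 narrowed.

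Falls were as large. In chr16:23912788-23914405 vehicle libraries ranked at 72.3 and 84.6 and EGF libraries at 9.92 and 5.08, a change of -71.0 ± 7.60 points (SE, limma adjusted p = 0.00408). Region chr9:120599173-120601404 went from 74.5 and 67.1 to 1.79 and 2.29. Region chr11:5661320-5663057 stood near the top with vehicle, at 92.7 and 95.6, and at 28.3 and 22.8 with EGF. Region chr7:52765035-52766292 fell from 93.7 and 85.9 to 21.4 and 24.9 with almost the same covered length, 1050 and 1258 bp with vehicle and 1158 and 1033 bp with EGF. All 10 of the largest falls had a shorter mean length with EGF, as had 81.3% of all 18868 regions. The length differences of these 10 missed the threshold (limma adjusted p between 0.213 and 0.824).

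**Figure D3:**
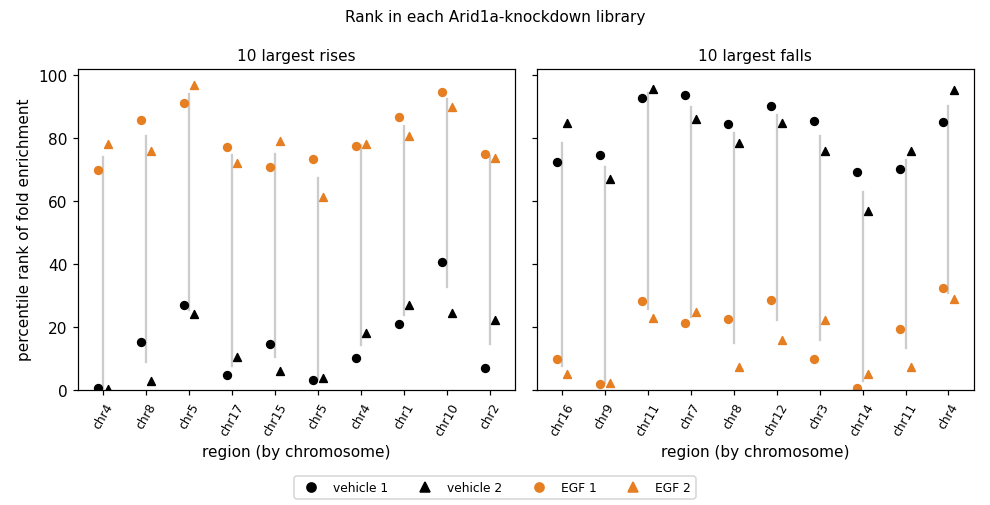
Percentile rank of fold enrichment (vertical axis) in each of the 4 knockdown libraries for the 10 regions with the largest rise (left) and the 10 with the largest fall (right), labelled by chromosome, with grey lines joining the group means. Vehicle libraries are black and EGF libraries orange, and the groups are apart in all 20 regions, by 59.6 points or more between their means.

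Rank and width were only loosely related. Over the 18868 regions the change of rank and the log2 ratio of length had a Pearson r of 0.180, as a description of regions that share the same 4 libraries. Regions that rose in rank narrowed less: their median log2 ratio was -0.15, and 664 of 2182 (30.4%) were wider with EGF. Regions that fell in rank were wider in 240 of 2242 cases (10.7%), fewer than the 18.1% of the 14444 others, while their median of -0.28 was near the -0.27 of those. Of the 2182 regions with a rise in rank, 30 passed the length test as longer and 90 as shorter. Of the 2242 with a fall, 3 were longer and 152 shorter. Rank calls were more frequent among strongly enriched regions: among the 4717 regions with the highest mean rank over the 4 libraries 17.9% rose and 18.9% fell, against 5.53% and 5.11% in the lowest 4717. The shift needed for a call varied between regions. The smallest called change was 4.11 points, while -9.55 points did not pass in chr5:37281135-37296617. The SE was 2.06 points in chr5:30889093-30923024, at mean ranks of 96.5 and 96.8. In chr2:156503677-156509747, at 5.53 and 37.2, it was 8.80. Whether strongly enriched regions also shifted further was not tested, and the shares of calls do not show it.

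**Figure D4:**
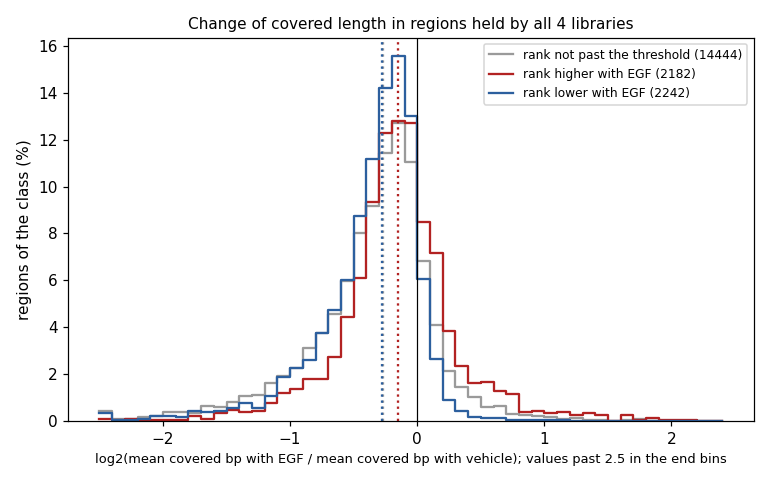
Share of regions (vertical axis, percent of the class) by log2 ratio of mean covered length, EGF over vehicle (horizontal axis), for regions whose rank rose, fell or did not pass. Dotted lines mark the class medians of -0.15, -0.28 and -0.27, all left of 0, and the class with a rise in rank reaches furthest to the right.

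Changes of rank in neighbouring regions were weakly correlated. Adjacent regions held by all 4 libraries and under 5 kb apart had a Pearson r of 0.058 between their changes of rank (2645 pairs), and adjacent regions over 200 kb apart one of -0.013 (2305 pairs). Where both members of an adjacent pair were called, they went the same way in 71 of 122 pairs (58.2%) under 5 kb, and in 57 of 127 (44.9%) over 200 kb. By chromosome, rises ranged from 6.76% of regions on X to 14.3% on chromosome 19, and falls from 7.22% on chromosome 18 to 14.3% on chromosome 5.

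The last question was whether the response differed from that with non-targeting siRNA, which shares no library with it. Over 16655 regions held by all 8 libraries, ranked among themselves, the change of rank with EGF after Arid1a siRNA followed that in intact cells, with a Pearson r of 0.788 and a Spearman rho of 0.762. This is a description, since regions are not independent. Intact vehicle libraries held 22167 and 28281 peaks and intact EGF libraries 22361 and 23080. Of the 1718 regions called higher in knockdown cells, 1661 (96.7%) were higher in intact cells and 1221 passed there. Of the 1729 called lower, 1696 (98.1%) were lower in intact cells and 1291 passed there. In the opposite sense, 2 regions lower in knockdown cells passed as higher in intact cells, and 0 the reverse. Together 20.7% of these regions were called in knockdown cells and 31.4% in intact cells, and the median shift was 10.1 and 11.9 points. Of all 16655 regions, 49.7% were higher and 50.3% lower in intact cells, and 2598 and 2626 passed there. Calls for both siRNAs came from 1 fit in which all 8 libraries shared the estimate of spread, so they are not independent.

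**Figure D5:**
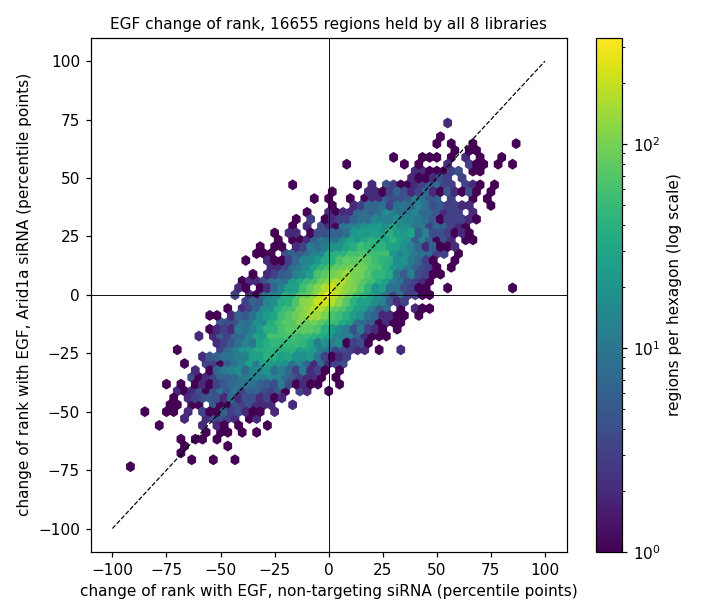
Change of percentile rank with EGF in intact cells (horizontal axis) and knockdown cells (vertical axis) for 16655 regions held by all 8 libraries, with colour for the number of regions per hexagon on a log scale. The regions spread along the dashed line of equal change (Pearson r 0.788), and few lie far into the quadrants of opposite sign.

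The difference between the responses was tested as an interaction of EGF and siRNA. By limma 0 of 16655 regions passed for rank (0.0%; 1424 at an unadjusted p under 0.05, smallest adjusted p = 0.0616), and 0 of 25326 for covered length (0.0%; 2462 at an unadjusted p under 0.05, smallest adjusted p = 0.0715). For length this count depended on the setting: 269 regions passed with a pseudocount of 100 bp, 104 with lists of equal length, 453 with peaks of −log10 q of at least 2, and 1499 without the second intact vehicle library. The median length difference with EGF was -0.30 in knockdown and -0.10 in intact cells, with 2907 and 1022 regions called. Regions entered this test through peaks in at least 2 knockdown libraries, so regions held by intact libraries alone were left out. The medians, call numbers and interaction of length may therefore favour knockdown cells, and they do not compare the sizes of the responses. The median interaction of length, -0.18, became -0.04 without the first intact vehicle library and -0.31 without the second. A p that misses the threshold does not show that the responses are alike. The 3 regions with the smallest interaction p for rank, chosen after their values were seen, show what such differences look like. In chr8:111227134-111239582 ranks among these regions were 54.5 and 53.4 with vehicle and 96.2 and 92.3 with EGF in knockdown cells, against 99.0 and 93.4, and 94.8 and 86.4, in intact cells. In chr15:36920776-36922024 intact ranks of 9.76 and 3.69 became 90.5 and 95.2 with EGF, while in knockdown cells 2.81 and 15.2 became 8.16 and 17.8. In chr4:133125360-133126419 EGF went with a rise from 8.12 and 15.5 to 57.7 and 61.2 in knockdown cells, and intact ranks were 39.7 and 36.0, and 25.1 and 16.5. Their interaction adjusted p by limma was 0.0616, 0.0924 and 0.304.

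The regions leading in rank or in gain of length moved in rank in the same direction in intact cells where they could be ranked. Of the 10 largest rises 8 were held by all 8 libraries, and all 8 rose in intact cells by 51.6 to 86.3 points past the limma threshold. Of the 10 largest falls 8 could be ranked, and all 8 fell there, by changes between -91.1 and -44.9 points, again past the threshold. The 5 regions with the largest gain of length rose in rank in intact cells by 32.3 to 59.3 points. Among the 5 largest losses of length, also held by all 8 libraries, calls and signs varied, although no interaction passed. The chromosome 15 domain fell by 23.6 points in intact cells (limma adjusted p = 0.0334), where its knockdown change did not pass. The chromosome 7 domain, with a rise past the threshold in knockdown cells, changed by 14.7 points in intact cells and did not pass (limma adjusted p = 0.167). For chr5:30889093-30923024 the intact change was -2.47 points, opposite in sign to the knockdown value, and neither passed. In chr6:5058918-5065246 intact libraries covered 1022 and 2465 bp with vehicle and 5499 and 5394 bp with EGF, which missed the threshold (limma adjusted p = 0.0600). In chr2:156503677-156509747 intact lengths overlapped, at 2580 and 5860 bp with vehicle and 6036 and 5312 bp with EGF. The intact gain of length passed in chr14:26670084-26677609, chr11:42996232-43001532 and chr11:76227647-76234015 (limma adjusted p = 0.0137, 0.0408 and 0.0236).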

How the data were processed

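H3K27ac was mapped in 8 libraries of 266-6 cells. Per the submitters' processing notes, the tools were MACS2 2.1.1.20160309.0, deepTools 3.0.2, SAMtools and Bowtie2 2.3.4.2, in no stated role, on build mm9. Each library has its own peak list. The sources used here give neither input libraries nor caller settings. The deposited lists give a score, a fold enrichment ratio over the caller's background, and −log10 p and −log10 q per peak. No peak had a −log10 q under 1.00.

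Peaks of the 4 knockdown lists sharing 1 bp were merged to regions. Covered bp (over 25326 regions) and percentile rank of the highest fold (over 18868) were tested with limma 3.58.1 under R 4.3.3 (trended empirical Bayes), with Benjamini-Hochberg adjustment at 0.05, after tests on simulated data. Totals used exact permutation. Other steps used SciPy 1.17.1, matplotlib 3.10.9, NumPy 2.4.6, pandas 2.3.3 and Python 3.11.15. The members, lists, tests and alternatives (stricter q, equal lists, other overlap rules, pseudocounts, filters, scalings, a replicate block, left-out libraries) were chosen with earlier results of these data known.

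Named are the 10 gained and 10 lost regions whose weaker peak ranks highest in its list, the 10 largest rises and falls of rank past the threshold, the 5 largest gains and losses of length without overlap, and the 5 stretches richest in gained or lost regions. Some are given by range. No mm9 genome or annotation was used, so no region is tied to a gene, planned gene lists were not analysed here and no sequence is shown. Read depth is unknown.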

Additional observations from a re-analysis of the deposited data

How the results depend on the processing

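The rank changes of the 20 leading regions kept their direction and their side of the threshold under every setting that gave a value for them, and covered length per library was lower with EGF under each setting run. The median log2 ratio of length ran from -0.30 to -0.23 without single libraries, at −log10 q of at least 2, with equal lists and with single peaks, but quantile normalization turned the median limma difference from -0.22 to 0.12. Peaks of −log10 q of at least 2 gave 1862 lost regions and 42 longer regions among those held by all libraries. A −log10 q of at least 5 gave 142 gained, 1582 lost and 8720 held by all. With equal lists 848 regions were gained and 1053 lost, and with bins of 1000 bp 1063 were gained, 9336 lost and 48659 held. Leaving out 1 knockdown library gave 538 to 1084 gained and 3557 to 5625 lost regions, since fewer libraries must then agree.

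In the length test, keeping regions with a peak in at least 1 library gave 180 longer, 42 of them held by all. A peak in at least 3 libraries gave 24 longer and 332 shorter, of which 19 and 317 were held by all. Quantile normalization gave 689 and 829, with 335 and 313 held by all, and equal lists 592 and 1610. Quantile normalization also turned the log2 difference of the lost regions chr11:61318275-61318626 and chr14:47441510-47441842 to 0.0117 and 0.0873. Leaving out 1 of the 8 libraries gave 0 to 423 longer and 0 to 4057 shorter regions, or 0 to 139 and 0 to 1644 among those held by all. The interaction in length passed in 269 regions with a pseudocount of 100 bp, 104 with equal lists and 453 at −log10 q of at least 2, and in 0 to 1499 without single libraries. The rank test gave 779 higher and 733 lower by −log10 q, 1316 and 4138 by percentile among all peaks, and 860 to 1101 and 681 to 1176 without single libraries. The interaction in rank passed in 1 region with the replicate block and in 0 to 1 without single libraries. The cause of these differences was not tested.

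The labels do not say whether equal replicate numbers mark pairs of libraries. The correlation of replicate deviations between the knockdown groups was 0.020 for length and -0.007 for rank, which cannot exclude pairing. The replicate block gave 238 longer and 2281 shorter regions, and 2733 higher and 2735 lower in rank. Depth is unknown, which limits every count of peaks.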
